A study of Rattus norvegicus with 12 samples.

Results

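The nuclear genes for the subunits of oxidative phosphorylation were taken from a table of read counts by gene symbol: every symbol that starts with Nduf followed by A, B, C, S or V and a number, Sdha to Sdhd, and every symbol that starts with Uqcr, Cox4 to Cox8 or Atp5. The rule gave 80 of the table's 17337 rows. They divide into 35 genes of complex I, 4 of complex II, 8 of complex III, 16 of complex IV and 17 of complex V by the prefix of the symbol. A few symbols fit the prefix better than the complex: Ndufa4 is now placed with complex IV, Atp5s and Atp5sl are not counted among the standard subunits of the ATP synthase, and Cox6c-ps1 is named as a pseudogene. Of the 80, 78 passed a filter on low counts and were tested. Cox6c-ps1 and Cox8c, a testis form of a complex IV subunit, had 0 reads in all 12 libraries.

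Oxidative phosphorylation takes place in the inner mitochondrial membrane. Complexes I and II take electrons from NADH and succinate, complex III passes them on to cytochrome c, complex IV hands them to oxygen, and the ATP synthase, or complex V, makes ATP from the proton gradient that complexes I, III and IV build. Most of the subunits are encoded in the nucleus and a few in mitochondrial DNA, and neurons depend on the pathway for most of their ATP. None of the symbols searched for the subunits encoded by mitochondrial DNA was in the table, so these subunits were not analysed here.

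Brain RNA was sequenced from male Sprague-Dawley rats of postnatal day 60, which the series design places in the middle brain, in 4 groups of 3 libraries. Sham rats and rats with bile duct ligation (BDL) for 4 weeks, a model of cholestatic liver disease, had no vector by their labels. The other groups were BDL rats that also received an adeno-associated virus carrying GFP (AAV-GFP) or VEGFC, a growth factor for lymphatic vessels (AAV-VEGFC), as 20 µl into the cisterna magna. No label gives a mock injection for the rats without a vector, the promoter of the vectors, the day of injection or a batch, so vector, injection and any batch cannot be told apart. All AAV rats carried a ligation, so no group shows the vector without it. P-values set a difference between groups against the spread between these libraries. Beyond the design's count of 3 rats per group, nothing ties a library to an animal.

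The libraries held between 40296297 and 51669067 counted reads. AAV-VEGFC 1 stood apart from the other libraries: its mean correlation with them was 0.977, against 0.985 to 0.99 for the other libraries. The summed level of cytosolic ribosomal protein genes was 30051 CPM there (counts scaled to a common library size) and 10922 to 16046 CPM elsewhere. Markers of neighbouring tissue marked 3 other libraries: Ttr of the choroid plexus lay at 245 CPM in sham 2 and at 57.8 CPM or less elsewhere, the hypothalamic hormone gene Oxt at 47.8 CPM in AAV-GFP 1 and at 2.24 or less elsewhere, and the pituitary hormone gene Prl at 25.7 CPM in AAV-VEGFC 3 and at 0.96 or less elsewhere. All 7 hypothalamic and pituitary genes together summed to 2.48 to 7.03 CPM in sham and 2.88 to 3.19 in BDL. Their sums were 3.07 to 86.4 CPM in AAV-GFP and 10.5 to 58.1 in AAV-VEGFC, so every AAV-VEGFC library was above every sham and BDL library. Neuron markers were present in every library (10 of 10 genes), with sums of 8430 to 9070 CPM in sham, 7920 to 8190 in BDL, 7930 to 9180 in AAV-GFP and 6720 to 9250 in AAV-VEGFC. Several measures set the 6 libraries with a vector apart from the 6 without, and others overlapped. The 18S ribosomal RNA gene Rn18s lay between 1360 and 2990 CPM without a vector and between 4250 and 11900 CPM with one. The 2 nuclear-retained RNAs in the table, Snhg11 and Miat, summed to 546 to 698 CPM without a vector and to 110 to 174 CPM with one. The 8 endothelial markers, none of them at 0, summed to 360 to 399 CPM in sham, 385 to 508 in BDL, 623 to 680 in AAV-GFP and 688 to 739 in AAV-VEGFC. The 8 microglial markers summed to 270 to 314, 318 to 364, 382 to 628 and 354 to 607 CPM in the same order, and the 8 astrocyte markers to 7020 to 7360, 7050 to 7270, 8060 to 9180 and 7080 to 11800 CPM. The 6 blood genes summed to 108 to 147, 409 to 810, 758 to 845 and 878 to 1230 CPM. In BDL against sham 4 of the 6 were called higher, where 0.109% of all genes were called. All 6 were called higher in AAV-VEGFC against sham, where 7.98% of all genes were. In AAV-GFP against BDL and in AAV-VEGFC against BDL, 0 of the 6 were called. The 8 oligodendrocyte markers summed to 12800 to 13700, 11800 to 13500, 11600 to 14200 and 11700 to 19400 CPM. For the 8 markers of parvalbumin interneurons the sums were 1040 to 1120, 866 to 997, 901 to 1080 and 611 to 1230 CPM. The part of these measures in the results on the subunit genes was not tested, and in bulk tissue fewer cells of a type and less RNA per cell cannot be told apart.

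The promoters of these genes are known for binding sites of nuclear respiratory factor 1 (NRF1), of the ETS family factor GABP and of YY1. In the RefSeq windows of the GRCr8 build (250 bases before to 50 after the start, 300 bases; the reads were counted on another build, rn6), 68 members had a sequence, of which the background is 27457 windows in all. The NRF1 string GCATGCGC on either strand stood in 9 of the 68 (13.2%, against 2.66% of all windows), the ETS string CCGGAAG in 19 (27.9%, against 9.22%) and the YY1 string AAGATGGC in 15 (22.1%, against 3.44%). Among the other strings searched, GGGCGG (SP1) stood in 42.6% of members and 34.9% of all windows, TGACGTCA (CRE) in 4 of the 68 (5.88%) and 1.91%, CCAAT in 32.4% and 37.7%, and TATAAA in 8.82% and 14.3%. None of these strings contains another, and the member windows had a median GC content of 56.1% against 52.3%; the part of base composition in these shares was not tested. Promoters of 4 genes with values below are shown because they differ in these strings. Capitals mark the NRF1, ETS or YY1 string on either strand: ETS at 2 places in Cox4i1 (chr19:65630133-65630432, plus strand), NRF1 and then YY1 in Uqcrc1 (chr8:118467973-118468272, plus strand), NRF1 and then ETS in Sdhb (chr5:158547684-158547983, plus strand), and none of these strings in Atp5d (chr7:10214301-10214600, minus strand).
Cox4i1: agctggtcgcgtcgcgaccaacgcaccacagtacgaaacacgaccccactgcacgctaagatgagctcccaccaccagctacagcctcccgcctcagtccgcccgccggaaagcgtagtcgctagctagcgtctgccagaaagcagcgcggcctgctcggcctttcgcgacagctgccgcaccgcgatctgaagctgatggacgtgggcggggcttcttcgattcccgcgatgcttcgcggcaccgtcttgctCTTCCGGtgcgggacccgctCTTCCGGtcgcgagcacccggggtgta
Uqcrc1: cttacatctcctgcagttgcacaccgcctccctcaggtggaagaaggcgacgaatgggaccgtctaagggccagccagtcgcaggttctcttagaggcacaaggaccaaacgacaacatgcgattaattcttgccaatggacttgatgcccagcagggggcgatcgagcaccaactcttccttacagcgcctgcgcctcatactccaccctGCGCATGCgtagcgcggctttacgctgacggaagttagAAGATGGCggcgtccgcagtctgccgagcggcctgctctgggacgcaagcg
Sdhb: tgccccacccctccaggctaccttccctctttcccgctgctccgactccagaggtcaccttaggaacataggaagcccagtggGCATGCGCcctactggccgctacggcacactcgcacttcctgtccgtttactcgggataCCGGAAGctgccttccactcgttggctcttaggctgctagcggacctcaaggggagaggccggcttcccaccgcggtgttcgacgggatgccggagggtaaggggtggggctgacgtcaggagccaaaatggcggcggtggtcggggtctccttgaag
Atp5d: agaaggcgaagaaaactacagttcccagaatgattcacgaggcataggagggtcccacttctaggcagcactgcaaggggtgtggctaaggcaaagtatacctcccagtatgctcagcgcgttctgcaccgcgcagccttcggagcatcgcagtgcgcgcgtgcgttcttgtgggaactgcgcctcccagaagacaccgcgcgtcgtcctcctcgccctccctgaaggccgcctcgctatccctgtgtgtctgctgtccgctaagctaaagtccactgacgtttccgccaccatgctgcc

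BDL against sham addresses ligation in rats without a vector. No subunit gene was called in edgeR's quasi-likelihood test at a Benjamini-Hochberg adjusted p under 0.05 over all 12850 genes tested (0 of 78; 0.109% of all genes were called), 1 of the 78 had an unadjusted p under 0.05, and DESeq2 and limma voom also called 0. With AAV-VEGFC 1 left out of the shared edgeR fit, again 0 were called, and 10 of the 78 had an unadjusted p under 0.05. The median log2 fold change of the 78 was 0.03 and that of all genes 0.01. The gene with the smallest p was Atp5sl, at 46.0, 43.4 and 39.4 CPM in sham and 50.2, 48.0 and 46.6 CPM in BDL. The groups did not overlap, but the log2 fold change of 0.17 (SE 0.07) had an adjusted p of 0.818. Ndufa4l2, a low-level relative of Ndufa4 known to respond to hypoxia, gave 0.36 (SE 0.22, adjusted p = 0.968). Cox4i1, the main form of a complex IV subunit that regulates the enzyme, lay at 424, 445 and 408 CPM in sham and 419, 441 and 421 CPM in BDL, with a log2 fold change of 0.01 (SE 0.19).

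AAV-GFP against BDL addresses vector and injection together in ligated rats. Nearly all subunit genes were higher by a small amount: 75 of 78 log2 fold changes were above 0, against 51.1% of all genes, and their median was 0.24 against 0.01 for all genes. In 62 of 78 genes every AAV-GFP library lay above every BDL library (18.2% of all genes did), and in 1, Ndufa1, every one lay below (20% of all genes). Atp5d was the 1 member called in the fit of all 12 libraries (0.988% of all genes were called higher). This gene, for the delta subunit of the ATP synthase, lay at 144, 145 and 140 CPM in sham, 139, 144 and 140 in BDL, 173, 178 and 182 in AAV-GFP and 192, 169 and 165 in AAV-VEGFC. All AAV libraries were above all libraries without a vector, and the group means were 141 ± 2.53 CPM in BDL and 177 ± 4.56 in AAV-GFP (SD, n = 3). Atp5d rose by 0.33 on the log2 scale (SE 0.07, edgeR adjusted p = 0.0155). The call depended on single libraries: without BDL 1, BDL 3, AAV-GFP 2 or AAV-GFP 3 no member was called, where 0.239%, 0.363%, 0.285% and 0.293% of all genes were called higher.

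The number of calls changed far more with AAV-VEGFC 1, a library of neither group compared. It enters the fit through the shared estimate of the spread and through the filter and scaling that all libraries share. Leaving that library out here was a choice made after seeing the data. With it left out, 57 of the 78 genes were called higher and none lower, against 10.1% and 12.6% of all 12962 genes then tested, at the same median of 0.24. With sham 2 and AAV-GFP 1 left out as well, 57 were again called higher, against 12.7% of all genes. On all libraries DESeq2 called 6 of the 78 higher (3.42% of all genes) and limma voom with library weights 64 (17.1%). On the 6 compared libraries alone edgeR called 44 higher (6.35%). DESeq2 and that last fit each called 1 member lower, Ndufa1. Beyond these settings the fold changes themselves moved little, with a median between 0.21 and 0.26 under every alternative run. By complex, the fit without AAV-VEGFC 1 called 26 of 35 genes of complex I, 2 of 4 of complex II, 6 of 8 of complex III, 9 of 14 of complex IV and 14 of 17 of complex V.

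**Figure D1:**
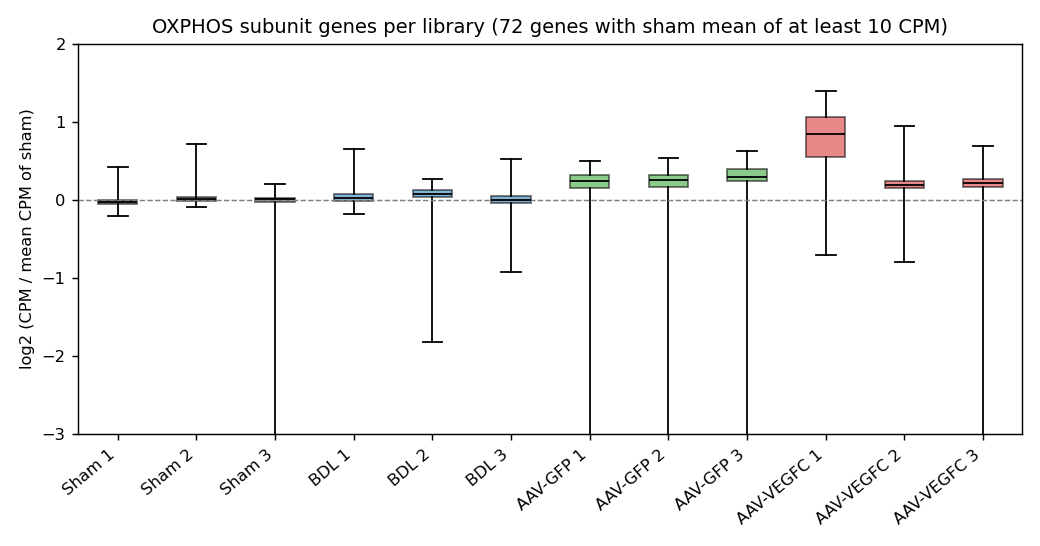
Log2 of CPM over the sham mean, for the 72 subunit genes with a sham mean of at least 10 CPM; a box per library spans the quartiles, the line is the median and whiskers run to the lowest and highest gene. The boxes of the AAV libraries lie above those of sham and BDL and that of AAV-VEGFC 1 lies highest. The axis ends at -3, and 5 values below it, all of Ndufa1, are not drawn.

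Per library, the median ratio to the sham mean over these 72 genes was 0.987, 1.01 and 1.01 in sham, 1.02, 1.06 and 1 in BDL, 1.18, 1.2 and 1.22 in AAV-GFP and 1.8, 1.15 and 1.17 in AAV-VEGFC. The same ratio over all 8723 genes at that level stayed between 0.962 and 1.01 in every library. Summed over all members, the level was 10801, 11042 and 10915 CPM in sham, 11133, 11411 and 10896 in BDL, 12662, 12868 and 13328 in AAV-GFP and 18327, 12545 and 12741 in AAV-VEGFC. All 6 AAV libraries were above the 6 without a vector. The same order held gene by gene for 57 of 78 members (73.1%), against 7.92% of all genes, and no member had all 6 AAV libraries below the others, against 10.4% of all genes. They were 26 genes of complex I, 4 of complex II, 6 of complex III, 8 of complex IV and 13 of complex V.

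In complex I, Ndufa10, an accessory subunit of the membrane arm, gave 134, 131 and 133 CPM in sham, 136, 137 and 137 in BDL, 153, 166 and 166 in AAV-GFP and 195, 159 and 157 in AAV-VEGFC. The AAV libraries did not overlap with the rest, and the log2 fold change of AAV-GFP against BDL was 0.24 (SE 0.08, adjusted p = 0.122), or 0.24 (SE 0.04, adjusted p = 0.00261) without AAV-VEGFC 1. Ndufv1, which binds NADH and the flavin that accepts its electrons, lay at 197, 203 and 202 CPM in sham, 204, 207 and 196 in BDL, 221, 227 and 229 in AAV-GFP and 257, 229 and 226 in AAV-VEGFC, a log2 fold change of 0.16 (SE 0.07, adjusted p = 0.197) and, without AAV-VEGFC 1, an adjusted p of 0.0141. Ndufs1, the largest iron-sulfur subunit, differed from them: it lay at 265, 264 and 271 CPM in sham, 255, 260 and 247 in BDL, 249, 284 and 276 in AAV-GFP and 230, 279 and 281 in AAV-VEGFC. Its groups overlapped, its log2 fold change was 0.09 (SE 0.09, adjusted p = 0.613), and AAV-VEGFC 1 was its lowest library.

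Complex II, which is also an enzyme of the citric acid cycle, split into its parts. The flavoprotein Sdha lay at 360, 366 and 368 CPM in sham, 364, 372 and 365 in BDL, 388, 387 and 376 in AAV-GFP and 403, 403 and 407 in AAV-VEGFC, with a log2 fold change of 0.06 (SE 0.05, adjusted p = 0.538) in AAV-GFP against BDL. Sdhb, the iron-sulfur subunit with the NRF1 and ETS strings shown above, lay at 104, 108 and 115 CPM in sham, 112, 113 and 110 in BDL, 118, 123 and 122 in AAV-GFP and 152, 120 and 127 in AAV-VEGFC, a log2 fold change of 0.11 (SE 0.08, adjusted p = 0.484). Neither of these 2 genes was called without AAV-VEGFC 1. The membrane anchors had larger differences. Sdhc lay at 120, 121 and 121 CPM in sham, 126, 134 and 129 in BDL, 155, 157 and 164 in AAV-GFP and 217, 147 and 149 in AAV-VEGFC, a log2 fold change of 0.29 (SE 0.13, adjusted p = 0.22), and Sdhd gave 0.26 (SE 0.18, adjusted p = 0.463). Both anchors were called higher without AAV-VEGFC 1, with adjusted p-values of 0.000856 and 0.00138. The difference between anchors and catalytic subunits was not tested.

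For complex III, Uqcrc1, a core protein of the matrix side, lay at 202, 202 and 203 CPM in sham, 207, 212 and 198 in BDL, 238, 239 and 245 in AAV-GFP and 309, 249 and 256 in AAV-VEGFC. No AAV library overlapped with the others; the log2 fold change was 0.23 (SE 0.08, adjusted p = 0.133), and without AAV-VEGFC 1 the adjusted p was 0.00275. Uqcrfs1, the Rieske iron-sulfur protein, gave 140, 145 and 141 CPM in sham, 141, 150 and 142 in BDL, 166, 170 and 175 in AAV-GFP and 283, 167 and 169 in AAV-VEGFC. Its log2 fold change was 0.24 (SE 0.16, adjusted p = 0.452). The small subunits Uqcr11 and Uqcrq gave 0.33 (SE 0.13) and 0.28 (SE 0.2), with adjusted p-values of 0.178 and 0.473. All 3 of these genes were called higher without AAV-VEGFC 1.

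In complex IV, Cox4i1 lay at 539, 531 and 561 CPM in AAV-GFP and 978, 518 and 540 in AAV-VEGFC, above the 408 to 445 CPM of the 6 libraries without a vector. Its mean was 427 ± 12.4 CPM in BDL and 544 ± 15.8 in AAV-GFP (SD, n = 3); the log2 fold change of 0.35 (SE 0.19) had an adjusted p of 0.341, and of 0.000634 without AAV-VEGFC 1. Cox5a, a subunit of the matrix side, lay at 137, 140 and 139 CPM in sham, 135, 139 and 135 in BDL, 162, 164 and 166 in AAV-GFP and 205, 161 and 162 in AAV-VEGFC, a log2 fold change of 0.27 (SE 0.09, adjusted p = 0.103) and an adjusted p of 0.000614 without AAV-VEGFC 1. Isoforms known from other tissues had low counts. Cox6a2, the heart and muscle form of a regulatory subunit, lay between 2.21 and 2.64 CPM in BDL, 3.42 and 3.92 in AAV-GFP and 3.33 and 5.31 in AAV-VEGFC, with sham at 2.57 to 3.6. Its log2 fold change was 0.53 (SE 0.2, adjusted p = 0.167; 0.0391 without AAV-VEGFC 1). Cox4i2, a lung form linked to low oxygen, had 57 to 91 reads per library, Cox6b2, a testis form, 33 to 88, and Cox8b, a muscle form, 0 to 24. None of these 3 was called in AAV-GFP against BDL (adjusted p from 0.793 to 0.979).

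Among the genes of the ATP synthase, Atp5b, the catalytic beta subunit, lay at 1530, 1540 and 1480 CPM in sham, 1540, 1560 and 1520 in BDL, 1720, 1780 and 1820 in AAV-GFP and 2150, 1790 and 1860 in AAV-VEGFC. The log2 fold change of AAV-GFP against BDL was 0.2 (SE 0.07, adjusted p = 0.121; 0.00284 without AAV-VEGFC 1). Atp5a1, the alpha subunit, gave 826, 846 and 818 CPM in sham, 853, 849 and 824 in BDL, 930, 925 and 936 in AAV-GFP and 977, 965 and 975 in AAV-VEGFC, a log2 fold change of 0.14 (SE 0.05, adjusted p = 0.137). All 6 AAV libraries of both genes were above the rest, and for Atp5a1 AAV-VEGFC 1 was close to AAV-VEGFC 2 and 3. Atp5g1, which with Atp5g2 and Atp5g3 encodes the same mature protein of the membrane ring, gave 0.25 (SE 0.15, adjusted p = 0.372). Without AAV-VEGFC 1 its adjusted p was 0.0045. Atp5sl, placed in complex V by its prefix alone, gave 0.01 (SE 0.07). The labels and processing notes do not say how reads that match several places were counted. Values of the Atp5g genes, and of Atp5f1 and Ndufs6 with their low counts, are therefore uncertain where other copies exist.

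**Figure D2:**
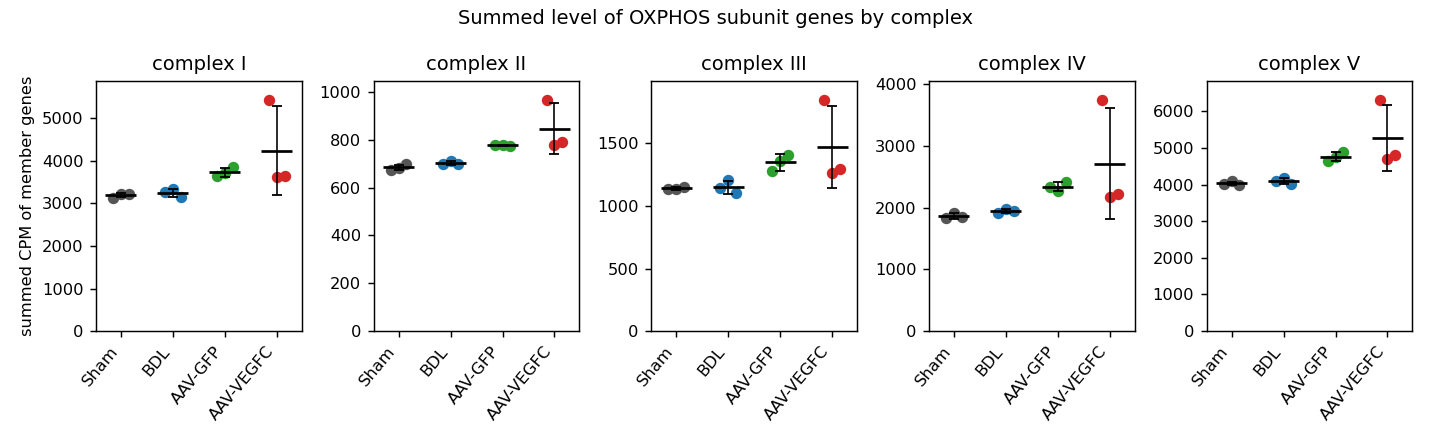
Summed CPM of the subunit genes of each complex; points are libraries in replicate order, the bar is the group mean and the error bars are the SD (n = 3). The sums of complex I run from 3140 to 3337 CPM in sham and BDL, from 3626 to 3853 in AAV-GFP and AAV-VEGFC 2 and 3, with AAV-VEGFC 1 at 5443 CPM.

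Differences were close in genes with and without the promoter strings shown above. In the fit without AAV-VEGFC 1, the median log2 fold change of AAV-GFP against BDL was 0.25 with the NRF1 string and 0.24 without it, 0.26 and 0.24 for ETS, and 0.28 and 0.24 for YY1. Atp5d, with none of the 3 strings, and Cox4i1, with the ETS string at 2 places, gave 0.33 and 0.35.

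AAV-VEGFC 1 carried 1.8% of its reads on the subunit genes, against 1.24% and 1.25% in AAV-VEGFC 2 and 3, and the excess was uneven across subunits. Over the 71 members with a mean of at least 10 CPM, the ratio of this library to the mean of AAV-VEGFC 2 and 3 had a median of 1.59, and 43 (60.6%) were at 1.5 or more, against a median of 0.99 and 11.6% over all genes at that level. The highest ratios were those of Ndufs5 (2.22), Ndufa2 (2.18), Atp5j2 (2.17), Ndufb8 (2.15), Ndufa6 (2.15) and Atp5o (2.1). At the low end stood Ndufs1 (0.82), Atp5sl (0.942), Sdha (0.995), Atp5a1 (1.01), Ndufv1 (1.13), Atp5d (1.15) and Atp5b (1.17), while Uqcrfs1 and Cox4i1 had 1.68 and 1.85. Genes named here other than Ndufs1, Sdha, Atp5a1, Ndufv1, Atp5d, Atp5b, Atp5sl, Uqcrfs1 and Cox4i1 were named after their values were seen. Ndufs5, for example, lay at 55.6, 60.5 and 56.4 CPM in sham, 53.4, 61.2 and 58.0 in BDL, 70.1, 69.5 and 78.4 in AAV-GFP and 140, 62.3 and 63.6 in AAV-VEGFC. The mitochondrial ribosomal protein genes also summed highest in this library, to 3044 CPM against 1918 to 2224 CPM elsewhere.

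AAV-VEGFC against BDL shares its BDL libraries with AAV-GFP against BDL. In it, 16 of 78 subunit genes rose and none fell (2.91% of all genes were called higher and 7.02% lower), the median log2 fold change was 0.41 against 0 for all genes, and in 62 of 78 every AAV-VEGFC library was above every BDL library (14.6% of all genes). The 16 were 9 genes of complex I (Ndufa12, Ndufs4, Ndufs8, Ndufv3, Ndufa10, Ndufb3, Ndufs6, Ndufa9 and Ndufv1), Uqcrc1, Cox5a, Cox6a2, Atp5b, Atp5d, Atp5j and Atp5a1. Without AAV-VEGFC 1, 27 were called, 15 of the 16 among them (7.5% of all genes were called higher), and the median fell to 0.16. The count also changed without BDL 1 (2 called, against 0.625% of all genes), BDL 2 (5, 1.06%), BDL 3 (1, 0.911%), AAV-VEGFC 2 (51, 7.63%) and AAV-VEGFC 3 (34, 3.63%). Fitted on the 6 compared libraries alone, no member was called (29 at an unadjusted p under 0.05; 0.23% of all genes were called higher), and DESeq2 called 39 (7.97%).

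Ndufa12, an accessory subunit of the peripheral arm, had the smallest p. It lay at 14.1, 13.5 and 12.6 CPM in sham, 11.8, 12 and 10.8 in BDL, 16.0, 14.9 and 14.3 in AAV-GFP and 31.2, 21 and 17.5 in AAV-VEGFC, so that all AAV-VEGFC libraries were above all others. Its log2 fold change against BDL was 1.01 (SE 0.17, adjusted p = 0.00406) and 0.74 (SE 0.1, adjusted p = 0.00101) without AAV-VEGFC 1; the gene was named after its values were seen. Uqcrc1 rose by 0.4 (SE 0.08, adjusted p = 0.0107) on the log2 scale, Atp5b by 0.33 (SE 0.07, adjusted p = 0.0142) and Atp5d by 0.32 (SE 0.07, adjusted p = 0.0157). Without AAV-VEGFC 1 they gave 0.3, 0.25 and 0.24 and were again called. Cox6a2 rose by 0.85 (SE 0.2, adjusted p = 0.0245), from the low levels given above, and by 1.02 (SE 0.18, adjusted p = 0.00412) without AAV-VEGFC 1. Markers of parvalbumin interneurons had a median log2 fold change of 0.09 in this comparison, with 6 of 8 above 0 and 0 called. Without AAV-VEGFC 1 their median was 0.36, with 8 of 8 above 0 and 3 called higher, against 7.5% of all genes. The 10 general neuron markers had a median of 0.14 in that fit, with 9 above 0 and 3 called higher. In AAV-GFP against BDL the parvalbumin markers had a median of 0.07, with 5 of 8 above 0 and 0 called, with or without AAV-VEGFC 1. Any link of Cox6a2 to these markers was not tested. Cox4i1 gave 0.67 (SE 0.19, adjusted p = 0.0501) with AAV-VEGFC 1 and 0.31 (SE 0.05, adjusted p = 0.00283) without it. In complex II, Sdha gave 0.14 (SE 0.05, adjusted p = 0.113), and 0.14 (SE 0.04, adjusted p = 0.0275) without AAV-VEGFC 1.

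**Figure D3:**
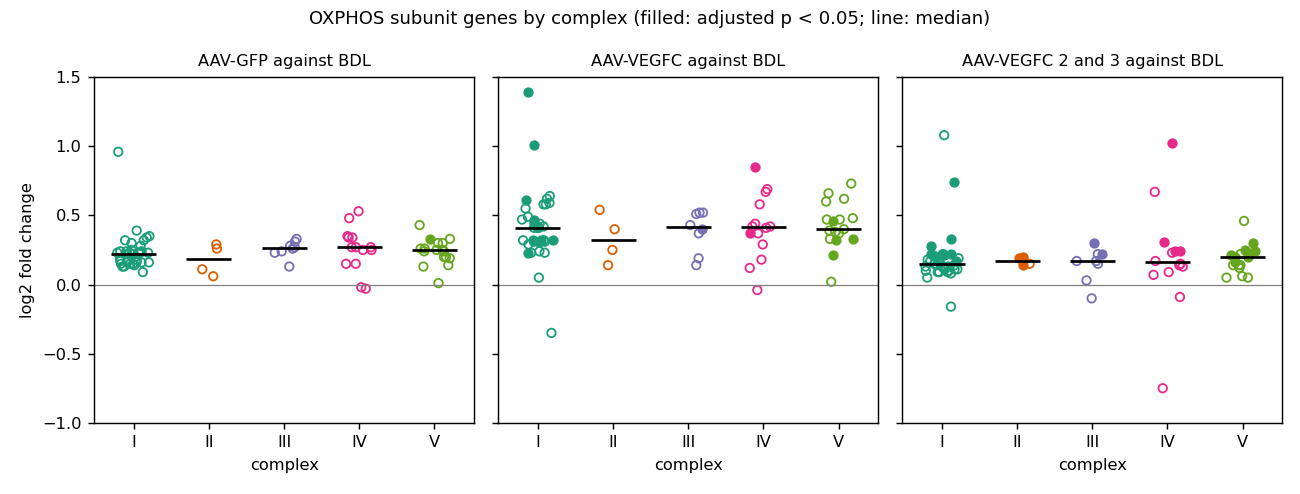
Log2 fold change of each tested subunit gene by complex, in AAV-GFP against BDL, AAV-VEGFC against BDL and the last without AAV-VEGFC 1; filled points passed an adjusted p of 0.05 and lines are medians. Medians of the complexes lie between 0.19 and 0.27 in the first panel, 0.32 and 0.41 in the second and 0.15 and 0.2 in the third; Ndufa1 at -4.37 lies outside the axis of the first panel.

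AAV-VEGFC against AAV-GFP addresses VEGFC beyond the vector. No subunit gene was called by edgeR in the fit of all 12 libraries (0 of 78; 0.00778% of all genes were called), 3 of the 78 had an unadjusted p under 0.05, and DESeq2 called 0 with 9 at an unadjusted p under 0.05. The direction of the members depended on AAV-VEGFC 1. With it the median log2 fold change was 0.18 and 8 of 78 genes had every AAV-VEGFC library above every AAV-GFP library (3.29% of all genes). Without it the median was -0.06, 9 genes lay above (15.8% of all genes) and 31 below (15.4%), and 0 were called (0.0694% of all genes). With sham 2 and AAV-GFP 1 left out as well, 3 genes were called lower (4.41% of all genes): Atp5e, the epsilon subunit, at -0.29 (SE 0.04, adjusted p = 0.00844), Cox7c at -0.21 (SE 0.05, adjusted p = 0.0351) and Atp5l at -0.2 (SE 0.05, adjusted p = 0.0465), in a fit chosen after seeing the data. Atp5e lay at 115, 123 and 123 CPM in AAV-GFP and 206, 99.9 and 100 in AAV-VEGFC, with 82.0 to 91.8 CPM in the libraries without a vector. Uqcrc1 and Cox4i1 gave 0.17 (SE 0.08) and 0.32 in the fit of all libraries, with an adjusted p of 0.948 for both. Without AAV-VEGFC 1 they gave 0.07 (SE 0.04) and -0.04 (SE 0.05), with adjusted p-values of 0.418 and 0.7.

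AAV-VEGFC against sham has no library in common with AAV-GFP against BDL. It called 37 of 78 subunit genes higher and none lower (7.98% and 10.6% of all genes), at a median of 0.46, and 50 without AAV-VEGFC 1 (10.4%), at a median of 0.21. With a sham library left out the count was 4 (sham 1; 1.96% of all genes), 6 (sham 2; 3.36%) and 4 (sham 3; 2.27%). Leaving out AAV-VEGFC 2 or 3 gave 62 (12.7%) and 61 (11.1%), and the fit on the compared libraries alone called 0 with 43 at an unadjusted p under 0.05 (1.27% of all genes were called higher). Uqcrc1 had the smallest p, at 0.42 (SE 0.08, adjusted p = 0.0057), and 0.32 (SE 0.04, adjusted p = 0.000855) without AAV-VEGFC 1. Set beside the values of AAV-GFP against BDL over the 71 members with at least 10 CPM, both fold changes were above 0 in 69. The share of all genes above 0 in both was not computed. Each comparison sets libraries with a vector against libraries without one. AAV-VEGFC against sham also sets ligated rats against rats without a ligation, so ligation cannot be told apart from vector and injection in it. Across the 71 members, which are not independent replicates, Pearson's r was 0.28 and Spearman's rho 0.34 for AAV-VEGFC 2 and 3. With all 3 AAV-VEGFC libraries they were 0.59 and 0.6. Atp5d gave 0.33 in AAV-GFP against BDL and 0.29 in AAV-VEGFC against sham.

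**Figure D4:**
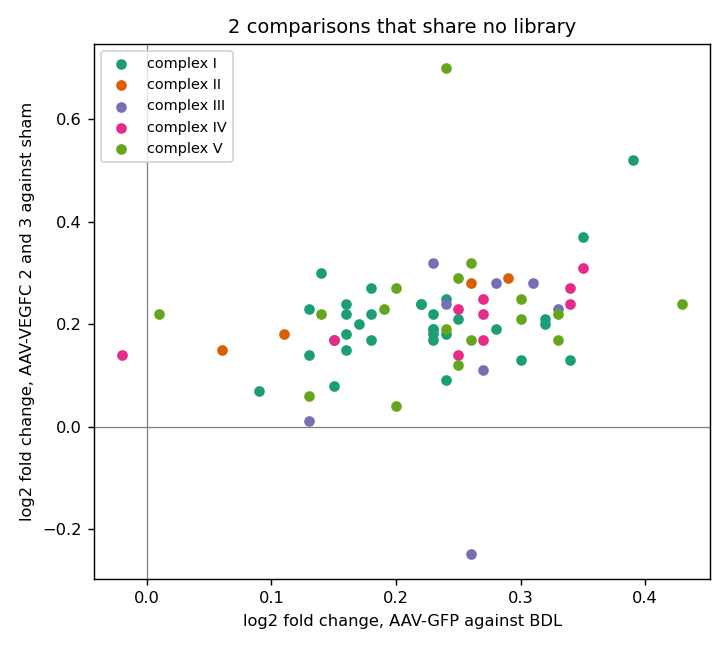
Log2 fold change of AAV-VEGFC 2 and 3 against sham (vertical) by that of AAV-GFP against BDL (horizontal) for the 71 subunit genes with a mean of at least 10 CPM, coloured by complex. Of these genes, 69 lie above 0 on both axes.

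A few members were uneven within groups. Ndufa1, a small membrane subunit encoded on the X chromosome, had 747, 880 and 3 reads in sham, 790, 145 and 779 in BDL, 35, 30 and 17 in AAV-GFP and 265, 1049 and 18 in AAV-VEGFC. It was low in sham 3 and AAV-VEGFC 3 as well as in all AAV-GFP libraries, and the log2 fold change of AAV-GFP against BDL, -4.37 (SE 1.51), had an adjusted p of 0.122. Uqcr10, a small subunit of complex III, was low in 1 library of each of 3 groups: BDL 3 at 19.8 CPM, AAV-GFP 1 at 26.7 and AAV-VEGFC 2 at 21.6, against 37.3 to 52.6 CPM in the other 9. Cox5b, a zinc-binding subunit of complex IV, reached 143 CPM in sham 1 and 155 and 152 CPM in BDL 1 and BDL 3, against 103 to 112 CPM in the other libraries without a vector, and gave a log2 fold change of -0.02 (SE 0.2) in AAV-GFP against BDL. Surf1, an assembly factor of complex IV outside the name rule, lay at 0.137, 8.64 and 8.1 CPM in sham and at 0 to 3.56 CPM in the other libraries. Uqcr10, Cox5b and Surf1 were named after their values were seen.

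Genes of the same machinery outside the name rule had lower medians than the 0.24 of the subunit genes, a difference that was not tested. Of 34 assembly factors tested, 1 rose in AAV-GFP against BDL: Ndufaf3, an assembly factor of complex I, at 33.0, 32.1 and 31.0 CPM in BDL and 38.2, 39.4 and 38.5 in AAV-GFP, rose by 0.27 on the log2 scale (SE 0.07, adjusted p = 0.0467; 0.00247 without AAV-VEGFC 1). Their median log2 fold change was 0.13, and 7 were called higher without AAV-VEGFC 1, against 0.988% and 10.1% of all genes called higher in these fits. In AAV-VEGFC against BDL, Ndufaf3 rose again (0.29, adjusted p = 0.0258) and Cox18, an assembly factor of complex IV, fell by 0.36 (adjusted p = 0.04). That made 1 of the 34 called higher and 1 lower, against 2.91% and 7.02% of all genes. Ndufaf3 and Cox18 were both called without AAV-VEGFC 1 as well, at 0.22 (adjusted p = 0.0148) and -0.42 (adjusted p = 0.0129). The 5 subunits that the rule missed in this table (Cyc1, Ndufab1, Usmg5, Atpif1 and the electron carrier Cycs) had a median of 0.18, and 0 were called; 1, Cyc1, had an unadjusted p under 0.05. With AAV-VEGFC 1 left out, 3 of the 5 were called. Of 16 genes of the citric acid cycle and pyruvate dehydrogenase, 0 were called in AAV-GFP against BDL (5 at an unadjusted p under 0.05; 7 called without AAV-VEGFC 1), with a median of 0.15. Fh, for fumarase, rose in AAV-VEGFC against BDL (0.26, SE 0.06, adjusted p = 0.0179). It was the 1 called of these 16, against 2.91% of all genes called higher. Without AAV-VEGFC 1 it gave 0.23, with an adjusted p of 0.0082.

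Of 17 regulators of mitochondrial biogenesis tested, none was called higher in AAV-GFP against BDL, with or without AAV-VEGFC 1. In the fit of all libraries 1 was called lower: Polrmt, the mitochondrial RNA polymerase, fell by 0.41 on the log2 scale (SE 0.08, adjusted p = 0.0091), from 27.5, 26.1 and 25.3 CPM in BDL to 19.3, 20.6 and 19.6 in AAV-GFP, with 17.4, 20.3 and 18.3 in AAV-VEGFC. Without AAV-VEGFC 1 its adjusted p was 0.00144. The share of all genes called lower in the fit of all libraries is not given here. In 4 of the 17 regulators every AAV-GFP library lay below every BDL library, against 20% of all genes. The median over the 17 was -0.03, and 3 were called lower without AAV-VEGFC 1, where 12.6% of all genes were called lower. Ppargc1a, the coactivator best known for driving mitochondrial biogenesis, gave -0.09 (SE 0.21, adjusted p = 0.841). Nrf1 gave -0.02 (SE 0.12), Gabpa -0.05 (SE 0.09) and Tfam, the packaging factor of mitochondrial DNA, 0.02 (SE 0.15).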

How the data were processed

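Trizol RNA of rat brain was made into 12 TruSeq libraries, per the labels' protocols. The submitters' processing notes list the build rn6 and the tools featureCounts, HISAT2, Trimmomatic 0.36 and FastQC; their settings, the annotation and the strandedness were not given in the sources. The deposited values are raw counts of reads per gene, made by the authors.

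From these counts, CPM (with TMM factors) and tests were computed in R 4.3.3 with edgeR 4.0.16 (glmQLFit and glmQLFTest, TMM, filterByExpr), in 1 fit of all 12 libraries, each group with its own mean. Genes were called at a Benjamini-Hochberg adjusted p under 0.05 over all 12850 genes, and SE is the absolute log2 fold change over the square root of F. Alternatives used limma 3.58.1 and DESeq2 1.42.0. The test was also run on simulated counts, with larger changes than most of those reported here and no library made to stand apart. That run therefore does not show how the test behaves in these data.

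Members and lists were chosen with earlier results of these data known. Genes were named by a rule: per complex, the smallest p in AAV-GFP against BDL (2 genes) and in BDL against sham (1 gene), core subunits and isoforms of other tissues. Depth ran from 40296297 to 51669067 counted reads.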

Additional observations from a re-analysis of the deposited data

How the results depend on the processing

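Members called in BDL against sham numbered 0 under every setting run. In AAV-GFP against BDL, 1 was called in the main setting, 7 by DESeq2, 64 by limma voom, 45 on the compared libraries alone and 57 without AAV-VEGFC 1, and 57 again without 3 libraries (sham 2, AAV-GFP 1 and AAV-VEGFC 1); leaving out 1 compared library gave 0 to 1. In AAV-VEGFC against BDL (16 called), DESeq2 gave 39 (7.97% of all genes were called higher), limma voom 26 (7.83%), the compared libraries alone 0 (0.23%), the 3 libraries left out 33 (10.7%) and single left-out libraries 1 to 51. In AAV-VEGFC against sham (37 called), DESeq2 gave 62 (13.7%), the compared libraries alone 0 (1.27%) and single left-out libraries 4 to 62. In AAV-VEGFC against AAV-GFP, 3 were called with the 3 libraries left out and 0 in every other setting. The median of that comparison turned from 0.18 to -0.06 with limma voom, with the 3 libraries left out and without AAV-VEGFC 1 (range with 1 library left out -0.06 to 0.3), and Cox4i1 turned from 0.32 to -0.03 with limma voom and -0.04 in the other cases (-0.04 to 0.48 with 1 library left out). Size factors of DESeq2, upper-quartile factors, TMM factors without members and ribosomal proteins, and both filters changed no direction of a median. The causes of these changes were not tested. A fit with the replicate number as a block called 8 in AAV-VEGFC against BDL (1.6% of all genes) and 15 in AAV-VEGFC against sham (4.73%), and left the counts of the other comparisons as they were. The numbers share no stated animal or batch, and deviations of same-numbered libraries correlated at -0.209 to 0.139 over 18 pairs, with 1 of 12 libraries closest to its own number. Leaving out sham 2, AAV-GFP 1 and AAV-VEGFC 1, the fit without AAV-VEGFC 1 in every comparison, and the TMM factors without members were chosen after seeing the data. Depth limits genes such as Cox8b, with 0 to 24 reads per library.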

Other observations

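All 16 glycolysis genes had a log2 fold change above 0 in AAV-GFP against BDL, with a median of 0.21. None of them was called by edgeR (7 at an unadjusted p under 0.05), and 6 were without AAV-VEGFC 1 (0.988% and 10.1% of all genes were called higher). In AAV-VEGFC against BDL, 15 of the 16 were above 0 and 4 rose (2.91% of all genes): Tpi1, for triosephosphate isomerase (0.54, SE 0.08, adjusted p = 0.00213), Ldhb, for the lactate dehydrogenase form that favours pyruvate (0.45, SE 0.08, adjusted p = 0.00353), Pgk1 (0.37, SE 0.08, adjusted p = 0.0176) and Gapdh (0.44, SE 0.12, adjusted p = 0.0429). Without AAV-VEGFC 1, 10 of the 16 were called (7.5% of all genes), and these 4 gave 0.45, 0.38, 0.27 and 0.46 with adjusted p-values from 7e-04 to 0.0375. Tpi1 lay at 132, 131 and 129 CPM in BDL, 149, 161 and 164 in AAV-GFP and 214, 176 and 182 in AAV-VEGFC, with 127 to 141 CPM in sham. Its AAV libraries were all above those without a vector.

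Of 10 carriers and porins of the mitochondrial membranes, 0 were called in AAV-GFP against BDL (6 at an unadjusted p under 0.05), with a median of 0.15; without AAV-VEGFC 1, 5 were called higher and 1 lower, against 10.1% and 12.6% of all genes. Slc25a4, the ADP/ATP carrier of heart and brain, lay at 634, 637 and 633 CPM in BDL and 702, 818 and 836 in AAV-GFP (0.31, SE 0.09, adjusted p = 0.0787; 0.00474 without AAV-VEGFC 1). Slc25a27, an uncoupling protein of neurons, lay at 47.6, 43.4 and 40.5 CPM in BDL and 37.5, 34.6 and 33.9 in AAV-GFP (-0.31, SE 0.11, adjusted p = 0.138; 0.00725 without AAV-VEGFC 1). Of 69 mitochondrial ribosomal protein genes, 0 were called (10 at an unadjusted p under 0.05; median 0.16), and 22 were without AAV-VEGFC 1. Of 81 cytosolic ribosomal protein genes, 1 was called higher (median 0.29), and 60 of 82 were without AAV-VEGFC 1, where 10.1% of all genes were called higher against 0.988% with it.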
